A study of Mus musculus with 10 samples.

Results

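Mouse ESC of the male line E14Tg2a grown in serum plus LIF (S+L ESC) were compared with ESC of the same line grown in 2i, across all genes and beyond the genes of the 2-cell embryo. The members were the 309 cells of the S+L ESC library and the 227 cells of the 2i ESC library, together 536 of the 2782 cells of 8 E14Tg2a libraries, chosen by the library suffix of their barcodes. The whole series held 5897 cells in 10 libraries. S+L ESC were kept on gelatin in Knock-out DMEM with 15% FBS and LIF. 2i ESC were kept without serum in N2B27 medium with the MEK inhibitor PD0325901 at 0.4 µM, the GSK3β inhibitor CHIR99021 at 3 µM and LIF, after at least 4 days of adaptation. No genetic change separated the groups, which were both wild type. Transcripts were counted as unique molecular identifiers (UMIs) by droplet-based 3′ scRNA-seq. Each condition had 1 library, so culture condition and library cannot be told apart, no test was run, and every value describes these 2 libraries.

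Serum with LIF and 2i with LIF are the standard ways to keep mouse ESC. LIF acts through STAT3, serum supplies BMP-like activity that raises ID proteins, and cells in serum keep their own FGF and ERK signaling. In 2i the MEK inhibitor blocks ERK, and the GSK3 inhibitor stabilizes β-catenin. ESC in 2i are known for low DNA methylation and an even naive state, and ESC in serum for higher methylation and more mixed expression.

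S+L ESC held more mRNA of several ERK targets and of many germline and clustered histone genes than 2i ESC. Among the inhibitors of differentiation *Id1* and *Id2* were higher and *Id3* and *Id4* lower. *Etv4*, an ETS factor induced by FGF and ERK, stood at 61.7 CPM in S+L ESC and 6.05 CPM in 2i ESC, where CPM are the UMIs of a gene per 1000000 UMIs of its library. The germline list summed to 315 and 109 CPM in the same order. 2i ESC held more mRNA of several lysosomal genes, a list that summed to 1097 CPM in S+L ESC and 2059 CPM in 2i ESC, and of *Ckb*, *Trh*, *Apoe* and *Vim*. The core and naive pluripotency factors lay mostly within 2-fold.

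The S+L ESC library held 10103178 UMIs with a median of 28909 per cell, and the 2i ESC library 8757170 UMIs with a median of 33971. The libraries shared 1 cell barcode. Scrublet called 10 S+L ESC and 1 2i ESC cell as doublets, which were kept. Both libraries showed the pluripotency markers of ESC, with *Pou5f1* at 1405 CPM in S+L ESC and 1495 CPM in 2i ESC and *Dppa5a* at 4533 CPM in S+L ESC and 4668 CPM in 2i ESC. Both are transcribed in naive cells, and neither library stood apart by them. In S+L ESC 10 cells held 5 or more UMIs of 2-cell-like markers, 3.24% of the cells (1.56 to 5.87), and together 96.1% of the library's UMIs of these genes. In 2i ESC 0 of 227 cells did, which allows a share of up to 1.32%. Among the 20 nearest neighbors on 20 principal components of all 8 libraries, S+L ESC cells had 99.1% of their neighbors in their own library. A further 0.583% lay in d4 EB and 0.227% in 2i ESC.

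CPM were taken from the sum over all cells of a library, so that each cell counted by its UMIs. Ratios of CPM carry exact 95% intervals in parentheses, which cover counting error only and not the spread between cultures. Genes with at least 10 UMIs over both libraries are referred to as measured. A gene was called higher or lower at a 2-fold difference after 1 CPM was added to both libraries. Of 12600 measured genes, 1226 were at least 2-fold higher in S+L ESC, 9.73% of those genes, and 304 were at least 2-fold lower, or 2.41%. The remaining 11070 lay between these bounds. The interval of the ratio lay past 1 for 6352 of the 12600. Leaving out the 10 cells with 2-cell-like transcripts left 1137 of the higher and 294 of the lower genes past the bound.

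The surplus of higher genes was largest among weakly expressed ones. Below a mean of 2 CPM, 18.6% of 2392 genes were higher and 1.46% lower, with a median log2 ratio of 0.45. From 10 to 25 CPM the shares were 6.54% and 2.65% of 2599 genes. From 100 to 500 CPM they were 0.792% and 3.17% of 884, with a median of -0.13. Of the 224 genes of 500 CPM or more 0.893% were higher and 0.446% lower, with a median of 0.00. Among the 8075 genes with at least 100 UMIs, 407 were higher and 209 lower, and their median was -0.01, against 0.10 over all 12600. LincRNAs of that depth had a median of 0.48 over 71 genes and protein-coding genes -0.01 over 7924. A list of weakly expressed genes is therefore to be read against a median above 0. The shares of all genes set beside the lists below are not matched for level, except where a range of CPM is given. In all 143 genes held at least 10 UMIs in S+L ESC and 0 in 2i ESC, 128 of them outside the 2-cell-like markers and 97 also without the 10 cells, while 2 genes, *Ly6a* and *Nkx1-2*, were found in this way in 2i ESC alone. What sets this lean was not tested.

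**Figure D1:**
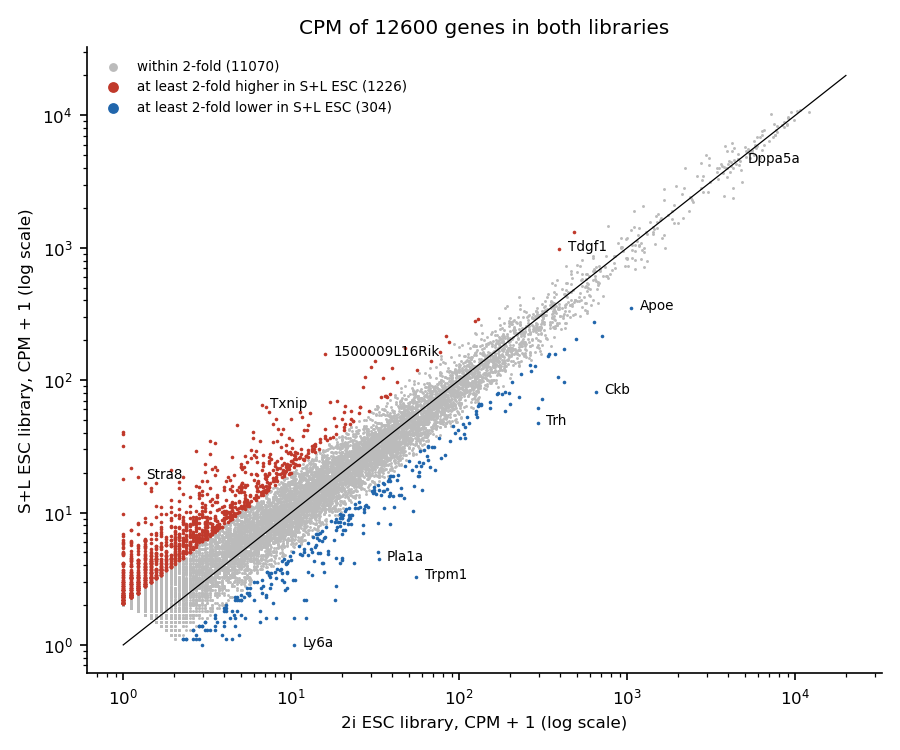
CPM plus 1 of 12600 genes in 2i ESC (x axis, log scale) and S+L ESC (y axis, log scale), 1 point a gene, with the diagonal as a line. Red points are the 1226 genes at least 2-fold higher in S+L ESC and blue points the 304 at least 2-fold lower, and the red points crowd at low CPM while blue points such as *Ckb* and *Apoe* reach high CPM.

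The 15 largest log2 ratios among genes with at least 100 UMIs, 2-cell markers left out, held several genes of germ cells. *Stra8*, which acts at the entry into meiosis, stood at 17.4 CPM in S+L ESC and 0.228 CPM in 2i ESC, or 176 and 2 UMIs, a ratio of 76.3-fold (20.8 to 635). *Smc1b*, a cohesin subunit of meiosis, was 14.8-fold (9.42 to 24.5) higher. *Cyct*, the testis form of cytochrome c, was 12.9-fold (8.39 to 20.9) higher, and *Tcfl5*, a transcription factor of spermatocytes, 11.7-fold (7.46 to 19.5). These 4 genes are known from meiosis or the testis, and the shares of cells in which they were found are given with the germline list. *Etv4* was 10.2-fold (7.69 to 13.8) higher. *Ccnd2*, a D-type cyclin, was 31.2-fold (11.9 to 116) higher. *Pmaip1*, which codes for the pro-apoptotic protein NOXA, was 29.5-fold (11.2 to 109.7) higher. *Txnip*, a glucose-responsive inhibitor of thioredoxin, stood at 63.3 CPM in S+L ESC and 5.71 CPM in 2i ESC. The most abundant of the 15 was *1500009L16Rik*, at 158 CPM in S+L ESC and 14.8 CPM in 2i ESC. *Neurod1*, a neuronal and endocrine transcription factor, was 45.9-fold (15.4 to 225) higher. *Tesc*, *Myo1f*, *Calml4* and the lincRNAs *Halr1* and *Gm5091* made up the rest, with log2 ratios of 3.04 to 3.45.

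The 15 lowest log2 ratios were led by *Trpm1*, a cation channel known from melanocytes and the retina, at 2.28 CPM in S+L ESC and 54.6 CPM in 2i ESC, 24.0-fold (15.8 to 38.2) lower in S+L ESC. *Ckb*, the brain form of creatine kinase, was expressed at a far higher level, 80.1 CPM in S+L ESC and 646 CPM in 2i ESC, or 8.07-fold (7.50 to 8.70) lower. *Trh*, the precursor of thyrotropin-releasing hormone, was 6.31-fold (5.72 to 6.98) lower. *Cd63*, a tetraspanin of late endosomes, was 4.78-fold (4.37 to 5.23) lower, and *Rab38*, a GTPase of lysosome-related organelles, 9.13-fold (4.99 to 18.3). *Fst*, the activin antagonist follistatin, stood at 0.594 CPM in S+L ESC and 11.3 CPM in 2i ESC. *Cdo1*, which oxidizes cysteine, was 5.60-fold (4.47 to 7.06) lower, and the glutathione transferase *Gstm2* 5.88-fold (4.00 to 8.88). *Pglyrp1*, *Pla1a*, *Slc4a5*, *Crxos*, *Nkain4*, *Stmn3* and *2310043M15Rik* had log2 ratios of -3.06 to -2.23. The last of these is annotated as an antisense RNA, and whether the counting used strand is not given in the sources used here.

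Some of the targets and feedback inhibitors of ERK were higher in S+L ESC. For this list of 22 genes, 20 passed the minimum of UMIs, 9 of them reached 2-fold in the direction of S+L ESC and 0 in that of 2i ESC, with a median log2 ratio of 0.83, against 9.73% and 2.41% of all genes. Besides *Etv4*, the feedback inhibitor *Spry4* was 9.39-fold (5.79 to 16.2) higher, at 19.3 CPM in S+L ESC and 2.06 CPM in 2i ESC. The immediate early genes *Fos* and *Egr1* were 3.36-fold (2.59 to 4.41) and 2.37-fold (1.92 to 2.94) higher. *Emp1*, *Ier3*, *Phlda1*, *Spred1* and *Myc* made up the rest of the 9, with log2 ratios of 1.06 to 1.90. The other 11 lay within 2-fold. *Dusp6*, the phosphatase of ERK, had a log2 ratio of -0.56 on 47 and 64 UMIs, *Etv5* one of 0.09 and *Spry2* one of 0.41. At 18231 UMIs per cell, a median of 8 UMIs of the list was left in S+L ESC and 5 in 2i ESC. *Fos*, *Egr1* and *Ier3* are also induced by cell dissociation, and of that list 3 of 14 measured genes were higher, these same 3. *Jun* and *Atf3*, which also answer dissociation, had log2 ratios of -0.13 and -0.45. The part of dissociation was not tested. Of the ligands and receptors of FGF, 2 of 11 were higher, against 9.73% of all genes. Their median level was 2.38 CPM, and 18.4% of all genes of 2 to 5 CPM were higher, so this count is near that share. *Fgf15* held 47 and 1 UMIs and *Fgfr4* 23 and 2 UMIs, while *Fgf4*, the main FGF of ESC, had a log2 ratio of 0.45 and *Fgfr1* one of 0.09.

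Genes of the other pathways that the media act on differed in both directions. Of the WNT and β-catenin list, 13 genes were measured, 4 were lower and 3 higher, and the median was 0.22, against 2.41% lower and 9.73% higher and a median of 0.10 over all genes. The lower and the higher ones alike were listed as targets. *Sp5* stood at 2.57 CPM in S+L ESC and 11.6 CPM in 2i ESC and *Axin2* at 5.84 CPM in S+L ESC and 13.5 CPM in 2i ESC. *Notum* had a log2 ratio of -1.13 and *Cdx1* one of -1.12. *Lef1*, a nuclear partner of β-catenin and also a listed target, was 8.41-fold (5.10 to 14.8) higher, and with it *Cdkn1c* and *Ccnd2*. In the BMP and ID list, 4 of 13 were higher and 2 lower, with a median of 0.76, against the same 9.73% and 2.41%. The inhibitors of differentiation split. *Id1* was 7.05-fold (5.40 to 9.33) and *Id2* 5.30-fold (3.69 to 7.81) higher, whereas *Id3* was 2.44-fold (2.11 to 2.84) and *Id4* 3.30-fold (1.76 to 6.56) lower. *Dusp9*, a phosphatase of ERK that BMP induces in ESC, was 8.90-fold (6.76 to 11.9) higher, and the inhibitory SMAD gene *Smad6* 3.90-fold (1.78 to 9.71).

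In the Nodal list 4 of 12 genes were higher and 1 lower, against 9.73% and 2.41% of all genes. Its median was 0.01, which turned to -0.11 with size factors, where 3 were higher. The coreceptor *Tdgf1* stood at 974 CPM in S+L ESC and 393 CPM in 2i ESC, or 2.48-fold (2.38 to 2.58) higher, and *Skil*, a SMAD target and corepressor, was 5.01-fold (3.85 to 6.59) higher. *Pmepa1*, a target of SMAD signaling, was 2.26-fold (1.78 to 2.90) higher. The inhibitor *Lefty2* was 2.57-fold (2.03 to 3.27) lower, while *Lefty1* and *Nodal* had log2 ratios of -0.40 and -0.04. LIF was present in both media, and of its list 1 of 13 genes was higher and 1 lower, against the same shares. With size factors or with CPM averaged over cells 0 were higher. *Socs3*, the STAT3 feedback inhibitor, was 2.12-fold (1.85 to 2.42) higher. *Stat3* stood at 31.2 CPM in S+L ESC and 31.2 CPM in 2i ESC, and the receptor subunit *Il6st* had a ratio of 0.999 (0.794 to 1.26).

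**Figure D2:**
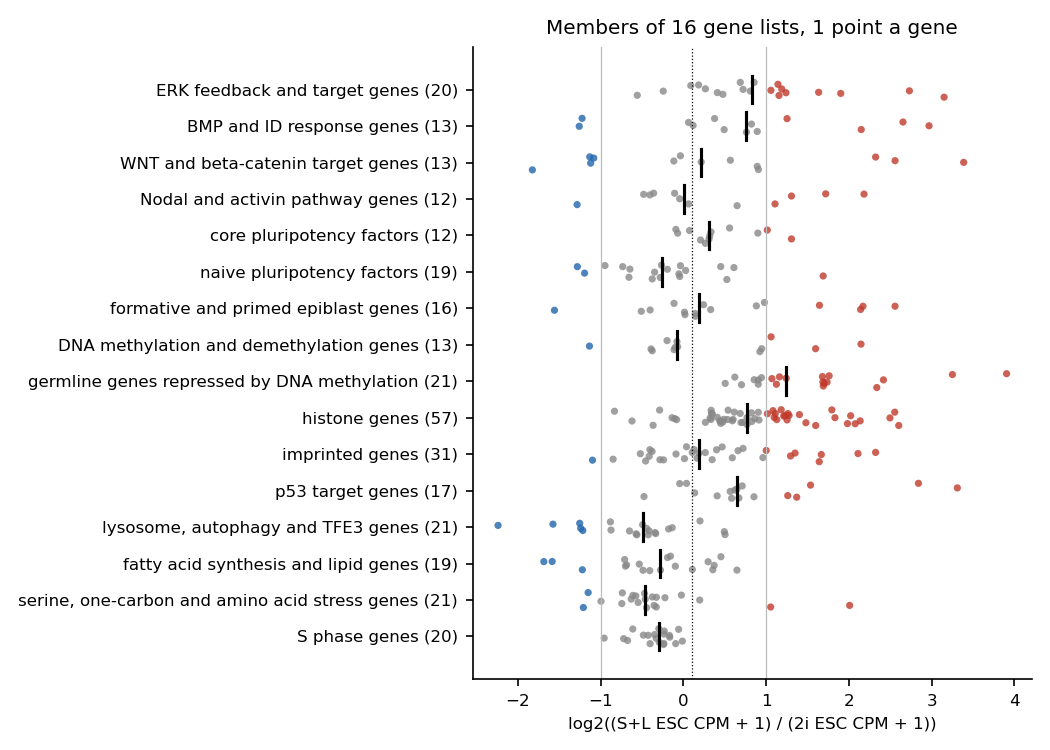
Log2 ratio of S+L ESC over 2i ESC (x axis) for the measured members of 16 gene lists, 1 point a gene, with the number of genes in parentheses. Red points are at least 2-fold higher and blue points at least 2-fold lower, the black bars are the medians of the lists and the dotted line is the median of all genes, 0.10. The germline list lies farthest to the right, with a median of 1.24, and the lysosome list farthest to the left, with -0.49.

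Naive pluripotency factors were mostly within 2-fold. Of 19 genes, 1 was higher and 2 were lower, against 9.73% and 2.41% of all genes. The median log2 ratio of the list was -0.26. *Tfcp2l1*, a naive factor downstream of LIF and GSK3 inhibition, was 2.31-fold (2.08 to 2.56) lower, at 54.0 CPM in S+L ESC and 125 CPM in 2i ESC. *Tdh*, the threonine dehydrogenase of mouse ESC, was 2.43-fold (2.31 to 2.57) lower. *Klf5* and *Tbx3* had log2 ratios of -0.95 and -0.64, both within 2-fold. *Esrrb* stood at 61.8 CPM in S+L ESC and 60.5 CPM in 2i ESC and *Klf4* at 194 CPM in S+L ESC and 247 CPM in 2i ESC, which are differences below 2-fold. *Zfp42*, also called *Rex1*, was at 669 CPM in S+L ESC and 464 CPM in 2i ESC and so leaned to S+L ESC. *Gbx2*, a LIF target that is also used in the formative state, was 3.58-fold (2.66 to 4.88) higher. *Prdm14*, a factor of naive and germ cells, held 81 and 86 UMIs, a ratio of 0.816 (0.595 to 1.12). *Dppa3* held 60 and 31 UMIs, with a Fano factor (variance over mean at equal depth) of 2.95 in S+L ESC and 1.34 in 2i ESC.

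Of the core factors 2 of 12 were higher and 0 lower, against 9.73% and 2.41% of all genes. Their median was 0.32, and 1 was higher with size factors. They lay at a median level of 125 CPM, and of all genes of 100 to 500 CPM 0.792% were higher and 3.17% lower. Besides *Tdgf1*, *Dppa4* was 2.05-fold (1.79 to 2.34) higher, and *Utf1* had a log2 ratio of 0.90. *Nanog* was at 144 CPM in S+L ESC and 116 CPM in 2i ESC and *Sox2* at 272 CPM in S+L ESC and 218 CPM in 2i ESC. In the formative and primed list 4 of 16 were higher and 1 lower, against 9.73% and 2.41% of all genes. *Lef1*, *Sox4*, *Grhl2* and *Pou3f1* were the higher ones. *Sox4* was 4.92-fold (3.72 to 6.61) higher, *Pou3f1* held 54 and 9 UMIs and *Grhl2* 51 and 3 UMIs. *Otx2*, the regulator of the formative transition, had a log2 ratio of -0.51 at 12.1 CPM in S+L ESC and 17.6 CPM in 2i ESC. *Dnmt3b* was at 32.3 CPM in S+L ESC and 34.9 CPM in 2i ESC, and *Fgf5* stayed below 10 UMIs over both libraries. *Nkx1-2* held 0 UMIs in S+L ESC and 17 in 2i ESC, which is at least 6.54-fold lower against a floor of 3 UMIs in the S+L ESC library.

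Genes that set or remove DNA methylation differed in part. Of 13 genes, 3 were higher and 1 lower, against 9.73% and 2.41% of all genes. Their median was -0.08, or 0.01 when CPM were scaled without the most abundant genes. *Dnmt3a*, a de novo methyltransferase, was 5.20-fold (3.69 to 7.50) higher, at 23.2 CPM in S+L ESC and 4.45 CPM in 2i ESC. Its cofactor *Dnmt3l* was 2.12-fold (1.85 to 2.43) higher. *Dnmt3b* and the maintenance enzyme *Dnmt1* were close in both, with ratios of 0.923 (0.788 to 1.08) and 0.934 (0.820 to 1.06). *Uhrf1*, which guides DNMT1, stood at 108 CPM in S+L ESC and 141 CPM in 2i ESC. The dioxygenases that oxidize 5-methylcytosine leaned to S+L ESC. *Tet1* stood at 150.1 CPM in S+L ESC and 77.3 CPM in 2i ESC and *Tet2* at 37.1 CPM in S+L ESC, with log2 ratios just inside the bound, 0.95 and 0.93, and *Tet3* held 24 and 1 UMIs. *Apobec2*, a cytidine deaminase family member, was 2.68-fold (1.65 to 4.47) lower.

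Germline genes had the highest median of the 16 lists plotted. These are genes of meiosis, piRNA and testis function that are known to be silenced by promoter methylation in somatic cells. Of 27 genes 21 were measured, 14 were at least 2-fold higher and 0 lower in S+L ESC, and all 21 log2 ratios were above 0, from 0.51 in *Taf7l* to 3.91 in *Stra8*. Their median was 1.24 at a median level of 5.38 CPM, where 9.28% of all genes of 5 to 10 CPM were higher. Summed over the list, the level was 315 CPM in S+L ESC and 109 CPM in 2i ESC, a ratio of 2.89 (2.69 to 3.11).

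Promoters of the list were searched for letters of sites that are known to matter for the silencing of germline genes in ESC. RefSeq promoters of GRCm38.p6, 250 bases before to 50 after the start, were found for 19 of its 21 measured genes. The E-box CACGTG, the letters of MYC, MAX and MGA sites, lay in 10 of them, or 52.6%, and in 12.1% of the 9740 measured genes with a promoter. The letters TCCCGC, the core of E2F6 sites, were searched on both strands and lay in 63.2% of the list and 41.1% of all. Both together lay in 6 of the 19 and in 4.71% of all. Among the 303 higher genes with at least 100 UMIs and a promoter, the E-box share was 10.2%. A match of letters does not show that a site is used. The list's 3 genes of most UMIs among those with both motifs were *Sycp3*, *Mael* and *Hormad1*, at Sycp3 chr10:88459337-88459636 (plus strand), Mael chr1:166238695-166238994 (minus strand), Hormad1 chr3:95559427-95559726 (plus strand). Their promoters follow, 5′ to 3′, with both motifs in capitals on either strand.
Sycp3: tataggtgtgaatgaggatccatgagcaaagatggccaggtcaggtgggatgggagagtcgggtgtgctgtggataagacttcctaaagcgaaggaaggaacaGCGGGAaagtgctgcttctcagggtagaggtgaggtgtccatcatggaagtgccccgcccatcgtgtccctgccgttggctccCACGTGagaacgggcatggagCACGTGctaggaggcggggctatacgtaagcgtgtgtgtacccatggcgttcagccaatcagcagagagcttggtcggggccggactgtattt
Mael: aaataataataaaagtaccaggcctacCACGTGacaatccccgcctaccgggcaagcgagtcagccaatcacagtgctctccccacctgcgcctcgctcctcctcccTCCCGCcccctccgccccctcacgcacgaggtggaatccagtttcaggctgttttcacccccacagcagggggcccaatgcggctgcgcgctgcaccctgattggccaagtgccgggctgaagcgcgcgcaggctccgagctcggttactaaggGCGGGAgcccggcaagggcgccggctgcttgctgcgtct
Hormad1: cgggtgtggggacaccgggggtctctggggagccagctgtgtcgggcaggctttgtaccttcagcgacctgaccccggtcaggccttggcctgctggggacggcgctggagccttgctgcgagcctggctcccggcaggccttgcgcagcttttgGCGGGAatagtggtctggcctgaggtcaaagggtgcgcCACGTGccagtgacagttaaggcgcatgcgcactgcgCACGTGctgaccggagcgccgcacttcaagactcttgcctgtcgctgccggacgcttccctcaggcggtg

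*Mael*, a piRNA pathway gene, stood at 33.7 CPM in S+L ESC and 5.48 CPM in 2i ESC, 6.14-fold (4.53 to 8.49) higher. *Hormad1*, which marks the axis of meiotic chromosomes, was 3.80-fold (2.63 to 5.63) higher, and *Sycp3*, of the synaptonemal complex, had a log2 ratio of 0.94 at 56.3 CPM in S+L ESC and 28.8 CPM in 2i ESC. *Stra8*, the gene with the largest ratio, held neither motif in this window, nor did *Dazl*, which was 2.28-fold (1.66 to 3.18) higher. *Mov10l1*, a helicase of the piRNA pathway, held 76 and 6 UMIs, and *Ddx4*, the germ cell helicase VASA, was 4.84-fold (2.60 to 9.83) higher. *Piwil2*, *Sycp1* and *Brdt* were higher on 30, 32 and 26 UMIs in S+L ESC, with 1 or 2 UMIs each in 2i ESC. *Rpl10l* and *Tuba3a* have near-identical copies, so their counts are uncertain.

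The level was spread over the cells. After thinning to 18231 UMIs per cell, 221 of 278 S+L ESC cells, or 79.5% (74.3 to 84.1), held UMIs of at least 3 germline genes, and 44 of 218 2i ESC cells, or 20.2% (15.1 to 26.1). *Cyct* was found in 43.9% (38.0 to 49.9) of S+L ESC and 4.59% (2.22 to 8.27) of 2i ESC. *Stra8* was found in 21.2% (16.6 to 26.5) of S+L ESC and 0.917% (0.111 to 3.27) of 2i ESC. *Smc1b* was found in 43.5% of S+L ESC and 4.13% of 2i ESC and *Tcfl5* in 36.7% of S+L ESC and 4.13% of 2i ESC. Free RNA can give UMIs in cells that do not express a gene. Primed EpiSC, thinned to the same depth from a median of 31587 UMIs, were set beside them, and there *Cyct*, *Stra8*, *Mael* and *Hormad1* were each found in 0 of 350 cells. *Smc1b* was found in 0.571% of EpiSC, but *Tcfl5* in 47.4%, at 41.8 CPM against 26.8 CPM in S+L ESC. Free RNA of the ESC libraries themselves was not measured by this.

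**Figure D3:**
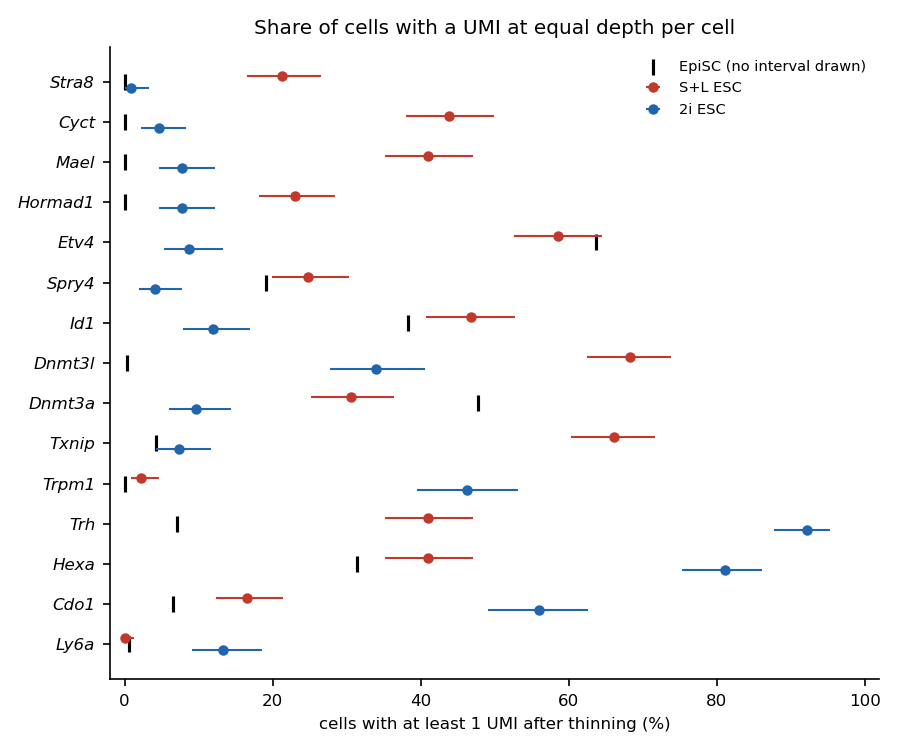
Share of cells with at least 1 UMI (x axis, percent) of 15 genes after thinning to 18231 UMIs per cell, in 278 S+L ESC (red) and 218 2i ESC (blue) cells with exact 95% intervals, and in 350 EpiSC (black ticks). The genes were picked for their differences or as members of the lists described, and the germline genes *Stra8*, *Cyct*, *Mael* and *Hormad1* lie at 0 in EpiSC.

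Histone genes of the *Hist* clusters were higher as well. Of 47 measured, 23 were higher and 0 lower, with a median of 0.92. Their sum was 343 CPM in S+L ESC and 151 CPM in 2i ESC, a ratio of 2.27 (2.13 to 2.43). Most of their mRNAs lack a poly(A) tail and near-identical copies share reads, so single genes are uncertain in data of this kind. *Hist1h2bc* led with 46.0 CPM in S+L ESC and 6.74 CPM in 2i ESC, and *Hist1h1c*, a linker histone, was 5.25-fold (3.66 to 7.74) higher. The 10 measured histone genes outside the clusters stayed within 2-fold, with *H2afz* at 2439 CPM in S+L ESC and 3747 CPM in 2i ESC. The S phase genes, which these clusters are known to follow, had 0 higher, 0 lower and a median of -0.29, with 20 of 20 log2 ratios below 0, of which 2 turned positive when CPM were scaled without the most abundant genes. The *Hist* genes lay at a median level of 1.76 CPM, where 18.6% of all genes below 2 CPM were higher.

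Of 31 imprinted genes measured, 7 were higher and 1 lower, with a median of 0.19, against 9.73% and 2.41% and a median of 0.10 over all genes, and 4 were higher when cells were thinned. *Cdkn1c*, *Phlda2* and *Ascl2* of the distal chromosome 7 cluster were 5.93-fold (4.21 to 8.57), 3.18-fold (2.81 to 3.59) and 3.02-fold (1.98 to 4.73) higher. *Grb10*, a growth inhibitor, was 4.60-fold (3.73 to 5.72) higher. *Peg10* and *Ndn* were higher too, and *Dlk1* held 22 and 0 UMIs, at least 6.36-fold higher against a floor of 3 UMIs in the 2i ESC library. *Mirg*, a non-coding RNA of the *Dlk1* and *Meg3* locus, was 2.28-fold (1.74 to 3.01) lower, and *Meg3* had a log2 ratio of -0.41. *H19* and *Igf2* stayed below 10 UMIs. Of the Polycomb list 2 of 19 were higher, *Jarid2* and *Phf19*, both at the bound with log2 ratios of 1.04 and 1.02. That count is near the 9.73% of all genes, and it was 0 with size factors or with CPM averaged over cells. *Ezh2*, the methyltransferase of PRC2, had 0.52, and *Suz12* and *Eed* -0.40 and -0.32.

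Some lysosomal genes were lower in S+L ESC. Of 21 measured, 5 were at least 2-fold lower and 0 higher, against 2.41% lower among all genes, the other 16 lay within 2-fold, and the median was -0.49. Their sum was 1097 CPM in S+L ESC and 2059 CPM in 2i ESC. The 5 were the tetraspanin *Cd63*, the hexosaminidase subunit *Hexa*, the cathepsins *Ctsl* and *Ctsb*, and *Npc2*, which carries cholesterol in the lysosome. *Hexa* stood at 35.3 CPM in S+L ESC and 107 CPM in 2i ESC and *Npc2* at 157 CPM in S+L ESC and 371 CPM in 2i ESC. *Tfeb*, the regulator of lysosomal genes, had a log2 ratio of -0.87, and *Tfe3*, its relative that acts in ESC, one of 0.20.

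Of the lipid genes 3 of 19 were lower and 0 higher, against 2.41% lower and 9.73% higher of all genes. *Apoe*, the apolipoprotein, stood at 351 CPM in S+L ESC and 1053 CPM in 2i ESC, 3.00-fold (2.89 to 3.12) lower. *Fabp3*, a fatty acid binding protein, and *Plin2*, which coats lipid droplets, were 3.25-fold (2.96 to 3.58) and 2.51-fold (1.90 to 3.34) lower. Sterol synthesis had 0 higher and 0 lower of 24, and log2 ratios from -0.71 to 0.59. In the serine and amino acid list 3 of 21 log2 ratios were above 0 and the median was -0.46. In it 2 genes were higher and 2 lower, against the same shares of all genes. *Phgdh*, the first enzyme of serine synthesis, and the asparagine synthetase *Asns* were 2.33-fold (2.14 to 2.53) and 2.23-fold (2.09 to 2.37) lower. *Ddit4*, an inhibitor of mTORC1 that answers low oxygen and stress, was 4.22-fold (3.51 to 5.09) higher, and *Ddit3* 2.19-fold (1.70 to 2.83).

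Of 20 glycolysis genes 2 were higher and 0 lower, against 9.73% and 2.41% of all genes. They lay at a median level of 130 CPM, and of all genes of 100 to 500 CPM 0.792% were higher and 3.17% lower. The median of the list was 0.02, or -0.10 with size factors. *Bnip3*, a mitophagy gene induced by low oxygen, was 2.61-fold (2.40 to 2.85) higher, and *Pfkfb3* held 37 and 7 UMIs. The glucose transporter *Slc2a1* and hexokinase *Hk2* had log2 ratios of 0.88 and 0.79, whereas *Gapdh* had -0.58 and *Hk1* -0.80. In the iron and redox list 1 of 20 was higher, or 0 with size factors, and 2 lower, against 9.73% and 2.41% of all genes. Its median level was 146 CPM, also within the range of 100 to 500 CPM. The transferrin receptor *Tfrc* was 2.18-fold (1.84 to 2.58) higher, and *Nqo1*, a target of NRF2, was 3.03-fold (2.46 to 3.76) lower. The other lower gene was *Cat*, which codes for catalase. The metallothioneins *Mt1* and *Mt2* had log2 ratios of -0.76 and -0.42, and *Mt1* stood at 987 CPM in S+L ESC and 1677 CPM in 2i ESC. *Ftl1-ps1* stood at 10616 CPM in S+L ESC and 12061 CPM in 2i ESC, and its counts cannot be parted from those of the near-identical *Ftl1*.

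Of the targets of p53 5 of 17 were higher and 0 lower, with a median of 0.65, against 9.73% and 2.41% and a median of 0.10 over all genes. The pro-apoptotic *Bbc3*, which codes for PUMA, was 3.02-fold (2.51 to 3.65) higher, and *Perp* 12.6-fold (6.64 to 26.8) on 145 and 10 UMIs. *Btg2* and *Trp53inp1* were 2.81-fold (2.11 to 3.78) and 2.51-fold (2.01 to 3.16) higher. *Cdkn1a*, the p53 target p21, had a log2 ratio of -0.47 and *Bax* one of 0.04. In the G1 list the higher genes were *Ccnd2*, *Cdkn1c*, *Rb1* and *Myc*, 4 of 20, against 9.73% of all genes. *Ccnd1*, *Ccnd3* and *Cdk4* had log2 ratios of -0.24, -0.30 and -0.34. Genes of G2 and mitosis had 0 higher and 0 lower of 21.

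Of 22 genes of the actin cytoskeleton and of SRF and YAP 4 were higher and 2 lower, against 9.73% and 2.41% of all. *Vim*, the intermediate filament vimentin, was 4.41-fold (4.06 to 4.80) lower, at 70.5 CPM in S+L ESC and 311 CPM in 2i ESC. The annexin *Anxa2* and the calcium-binding *S100a6* were 5.69-fold (4.36 to 7.52) and 5.65-fold (4.44 to 7.26) higher. *Actb* and *Actg1* had log2 ratios of -0.38 and -0.45. Genes of MHC and interferon responses split, 2 higher and 3 lower of 12, against the same shares of all genes. *Ly6a*, which codes for SCA-1, held 0 UMIs in S+L ESC and 82 in 2i ESC, at least 31.5-fold lower. *Ifitm3* stood at 105 CPM in S+L ESC and 387 CPM in 2i ESC and *B2m*, the light chain of MHC class I, at 15.4 CPM in S+L ESC and 34.8 CPM in 2i ESC, while the heavy chain gene *H2-K1* was higher on 46 and 12 UMIs.

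The largest surpluses of CPM in S+L ESC were in ribosomal protein genes, which are the most abundant mRNAs. The 10 genes with the largest surplus of CPM in S+L ESC were *Rpl41*, *Rpl39*, *Rps29*, *Rpl37*, *Rps28*, *Rpl36*, *Rps27*, *Rpl37a*, *Rpl35a* and *Rplp2*, with log2 ratios of 0.27 to 0.86, each within 2-fold. *Rpl39* stood at 4981 CPM in S+L ESC and 2952 CPM in 2i ESC and *Rps28* at 4011 CPM in S+L ESC and 2209 CPM in 2i ESC. Over the 80 genes, 1 was called, *Rpl39l*, a close copy of *Rpl39* whose count is therefore uncertain, and the median was 0.10, or -0.02 with size factors. The difference followed coding length. The 10 genes with under 300 nucleotides of coding sequence had a median of 0.63 and summed to 46943 CPM in S+L ESC and 30719 CPM in 2i ESC, with 10 of 10 above 0. The 45 genes from 300 to under 600 nucleotides had a median of 0.11, and the 25 longer ones -0.01, with 12 above 0. Over all genes with at least 100 UMIs the medians fell with length up to 1200 nucleotides and then rose. The 185 such genes under 300 nucleotides had a median of 0.29. It was 0.02 for 1057 genes from 300 to under 600 and -0.09 for 2420 from 600 to under 1200. Beyond that it was -0.04 for 2701 from 1200 to under 2400 and 0.08 for 1561 of 2400 or more. Library and culture condition cannot be told apart here either.

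**Figure D4:**
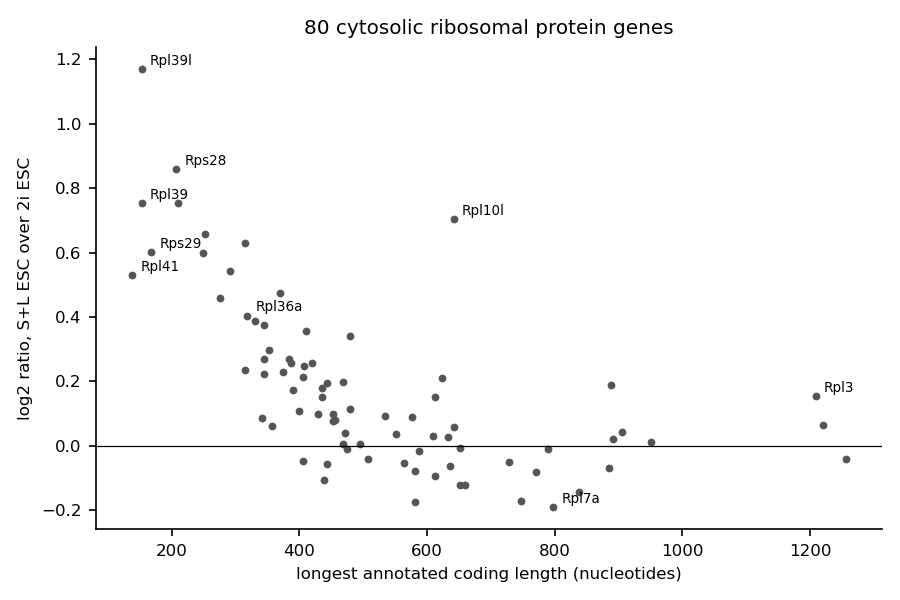
Log2 ratio of S+L ESC over 2i ESC (y axis) against the longest annotated coding length (x axis, nucleotides) of 80 cytosolic ribosomal protein genes, 1 point a gene. The 10 shortest all lie above 0, with *Rpl39l* highest, and *Rpl10l*, a germline gene, stands above others of its length.

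On the other side, the genes with the largest loss of CPM from 2i ESC to S+L ESC were *Hsp90aa1*, *Ppia*, *Ftl1-ps1*, *mt-Nd1*, *Gapdh*, *H2afz*, *mt-Co2*, *Hsp90ab1*, *Apoe* and *Mt1*. The chaperone *Hsp90aa1* stood at 2386 CPM in S+L ESC and 4249.8 CPM in 2i ESC, and of the 10 *Apoe* alone passed 2-fold. Mitochondrially encoded genes summed to 43997 CPM in S+L ESC and 46379 CPM in 2i ESC. Of the 13 genes only *mt-Nd6*, which lies on the other strand of the mitochondrial genome, was called, at 15.7 CPM in S+L ESC and 5.25 CPM in 2i ESC. Nuclear genes of the respiratory chain had 4 higher and 0 lower of 96, with a median of -0.17. Over all genes 9.73% were higher and 2.41% lower. The list lay at a median level of 234 CPM, and of all genes of 100 to 500 CPM 0.792% were higher and 3.17% lower. The 4 were *Ndufa4l2*, which is induced by low oxygen, at 139 CPM in S+L ESC and 30.6 CPM in 2i ESC, and the tissue-specific subunits *Cox4i2*, *Cox6a2* and *Cox8c*.

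Detection per cell was compared at equal depth, with 31 S+L ESC and 9 2i ESC cells below 18231 UMIs left out. The median number of genes per cell was 3518.5 in S+L ESC and 3471.5 in 2i ESC, and unthinned it was 4481 and 4682, the opposite order. Among genes with at least 100 UMIs the share of cells with a UMI was at least 20 percentage points higher in S+L ESC for 173 and lower for 187. The largest gain was in *1500009L16Rik*, found in 88.8% (84.5 to 92.3) of S+L ESC and 17.4% (12.6 to 23.1) of 2i ESC. *Txnip* was found in 66.2% of S+L ESC and 7.34% of 2i ESC, and *Etv4* in 58.6% of S+L ESC and 8.72% of 2i ESC. *Epcam*, the adhesion molecule of epithelia and ESC, was found in 79.5% of S+L ESC and 38.1% of 2i ESC at 104 against 26.6 CPM. *Basp1*, *Calml4*, *Emb*, *Ndufa4l2*, *Pla2g12a* and *Pcsk1n* completed the 10, with CPM ratios of 3.15-fold in *Emb* to 11.8-fold in *Calml4*. Unthinned, *1500009L16Rik* was found in 93.5% of S+L ESC and 35.2% of 2i ESC.

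The largest deficit was in *Trh*, found in 41.0% (35.2 to 47.0) of S+L ESC and 92.2% (87.8 to 95.4) of 2i ESC. The 10 genes held 2 of glutathione metabolism, with *Gstm1* found in 26.3% of S+L ESC and 72.0% of 2i ESC and the synthetase *Gss* in 20.1% of S+L ESC and 61.5% of 2i ESC. *Hexa* was found in 41.0% of S+L ESC and 81.2% of 2i ESC, and *Trpm1* in 2.16% of S+L ESC and 46.3% of 2i ESC. *Cbr3*, *Rnh1*, *Cdo1*, *Pla1a* and *Lrpap1* completed the list, at 5.76% to 36.3% of S+L ESC. In EpiSC at this depth *Trpm1* was found in 0% of cells.

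Cell-to-cell spread was measured by the Fano factor, the variance over the mean of thinned UMIs, which counting noise alone would put at 1. Over 3531 genes the median was 1.13 in S+L ESC and 1.12 in 2i ESC, and 80 genes were at least 1.5 times higher in S+L ESC and 12 lower. With unthinned UMIs scaled to the median depth these counts were 367 and 15. *Tdgf1* had Fano factors of 5.87 and 2.37, and *Tcf15*, a factor of ESC primed for differentiation, 2.62 and 1.11. Both were also higher in level, and *Tcf15* was 3.75-fold (3.37 to 4.19) higher. *Gapdh* was more variable at a lower level, 10.7 against 4.65. *Gpx4*, *Elob*, *mt-Cytb*, *Eif1*, *Tmem245*, *mt-Nd4* and the lincRNA *Gm26917* completed the 10, with ratios of 2.11 to 2.82. In the other direction *Ccnb1* had 1.72 in S+L ESC and 3.88 in 2i ESC, and *Cdkn1a* 1.30 and 2.70. *Actg1*, *Cbx3*, *Ldha*, *Polr2d*, *Ass1*, *Hat1*, *Usp39* and *Slc25a4* followed.

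Naive factors were not all more variable in serum. *Zfp42* had Fano factors of 3.35 in S+L ESC and 1.83 in 2i ESC, *Nanog* 1.79 and 1.09, and *Tbx3* 2.33 and 1.29. *Klf4* had 2.11 and 2.69 and so leaned the other way. *Id1* and *Id2* had 2.44 and 2.43 in S+L ESC, where both were also higher in level. Their Fano factors in 2i ESC are not reported here, so no comparison is made for them. As a measure over many genes, the median distance between cells on the 500 most variable genes was 0.327 in S+L ESC, with quartiles of 0.312 and 0.345, and 0.323 in 2i ESC, with quartiles of 0.310 and 0.337. The distance was the root of the halved difference of Spearman's correlation from 1, and the quartiles of the libraries overlapped.

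The levels were set beside those of other stages of the same table, which begin from 2i ESC and were 1 library each. *Etv4* stood at 59.4 CPM in d1 EpiLC and 58.9 CPM in EpiSC, near its 61.7 CPM in S+L ESC. *Dnmt3a* reached 174 CPM in d1 EpiLC, *Lef1* 78.6 CPM and *Pou3f1* 302 CPM, all above S+L ESC. In these 3 genes S+L ESC lay between 2i ESC and d1 EpiLC. *Dnmt3b*, which was even between the ESC, reached 413 CPM in d1 EpiLC. *Stra8* stood at 1.64 CPM in d1 EpiLC, 0.0896 in d2 EpiLC and 0 in EpiSC, so S+L ESC held the highest of these. *Id1* stood at 3.00 CPM in d1 EpiLC and 39.2 CPM in EpiSC, and *Tfcp2l1* at 7.91 CPM in d1 EpiLC. Of the study's ESC genes 94 of 493 were lower and 18 higher in S+L ESC, and of its EpiLC genes 122 of 369 were higher and 4 lower. Of its EpiSC genes 122 of 497 were higher and 10 lower, and of its PGCLC genes 38 of 385 and 28. Over all genes 9.73% were higher and 2.41% lower, and the count of higher PGCLC genes was near that share. These sets were chosen on these libraries, 2i ESC included, so their direction is not independent evidence.

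**Figure D5:**
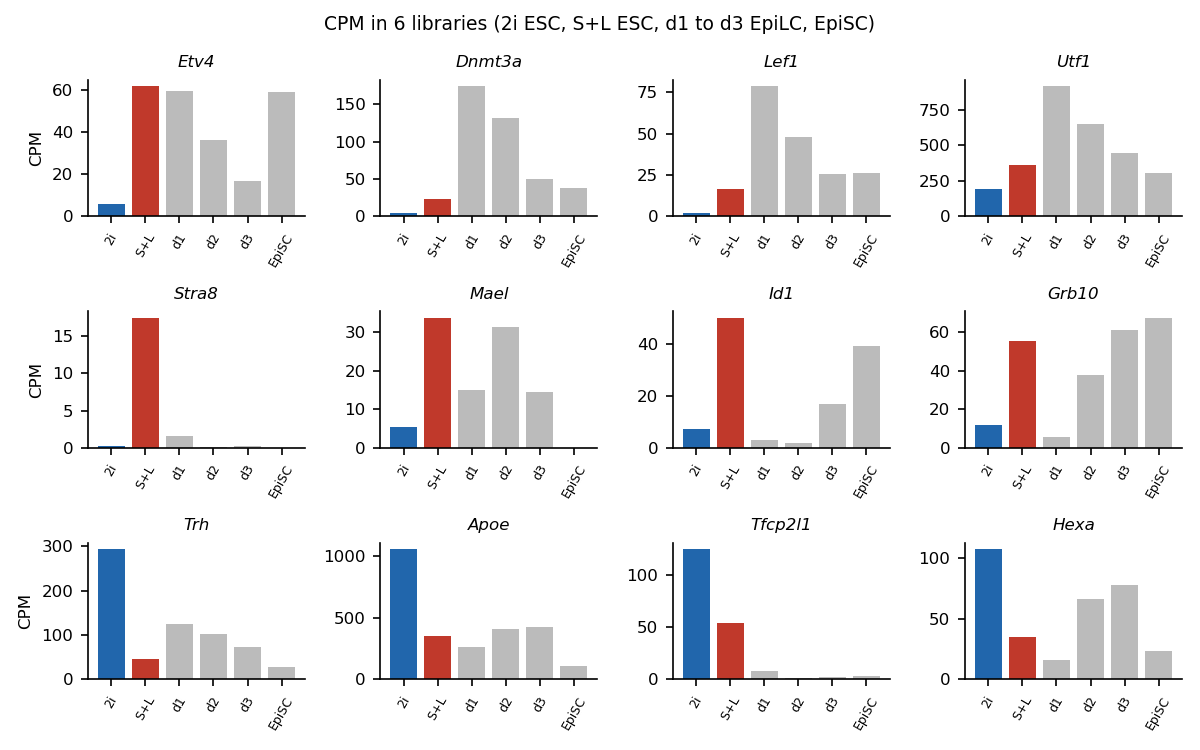
CPM (y axis, a scale for each gene, from 0) of 12 genes in 1 library each of 2i ESC (blue), S+L ESC (red), d1, d2 and d3 EpiLC and EpiSC (grey). *Stra8* is near 0 outside S+L ESC, where it stood at 17.4 CPM, and *Dnmt3a* and *Lef1* peak in d1 EpiLC.

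Markers of other cell types were summed by list. The primitive endoderm list summed to 88.6 CPM in S+L ESC and 155 CPM in 2i ESC, most of it *Sparc*, while *Gata6*, its defining factor, held 6 and 1 UMIs and *Gata4* 2 and 2 UMIs. Of 7 measured genes of this list 3 were higher and 2 lower, against 9.73% and 2.41% of all genes. *Lamb1*, *Col4a1* and *Col4a2*, which code for basement membrane, were higher, with *Lamb1* at 8.61 CPM in S+L ESC and 1.03 CPM in 2i ESC. *Fst*, also a member, was lower, on 6 UMIs in S+L ESC and 99 in 2i ESC. The fibroblast list summed to 14.5 and 2.85 CPM, with *Thy1* at 6.83 CPM in S+L ESC and 1.03 CPM in 2i ESC and *Col1a1* at 1 UMI in each. Of this list 5 genes were measured, 3 higher and 0 lower, with a median of 1.33. The 5 had a median level of 1.25 CPM, where 18.6% of all genes below 2 CPM were higher. After thinning 23.4% of S+L ESC and 5.05% of 2i ESC cells held a UMI of the list. In S+L ESC 0 of 278 cells held 3 of its markers, with an upper 95% bound of 1.32%. At such levels 3 markers in 1 cell are unlikely to be seen, so this 0 says little. Of the trophoblast markers 2 of 8 were higher, *Ascl2* and *Rhox6*, against 9.73% of all genes. Their median level was 2.27 CPM, and 18.4% of all genes of 2 to 5 CPM were higher. Of the streak markers *Mesp2* was higher and *Gsc* lower. Of 7 *Hox* genes measured 0 were higher and 0 lower. Of the 2-cell-like markers 17 of 18 were higher, and 2 without the 10 cells. The blood list summed to 23.2 CPM in S+L ESC and 43.1 CPM in 2i ESC, and 35.3% and 57.3% of thinned cells held a UMI of it. Its 1 measured gene was *Laptm5*, a lysosomal membrane protein of blood cells, with a log2 ratio of -0.93, and *Ptprc*, which defines blood cells, held 0 and 0 UMIs. The neural list summed to 899.7 CPM in S+L ESC and 868 CPM in 2i ESC, most of it *Stmn2* at 870.4 CPM in S+L ESC and 835 CPM in 2i ESC, and 1 of 7 measured genes was higher and 0 lower. *Pax6*, the higher one, held 30 and 0 UMIs, at least 8.67-fold higher, and *Sox1* 16 and 3 UMIs. Median log2 ratios by chromosome lay between 0.04 and 0.21 over the autosomes and X.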

How the data were processed

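Cells of the E14Tg2a table were profiled by droplet-based 3′ scRNA-seq, and the authors deposited UMI counts per gene and cell, made with Cell Ranger on mm10 (GRCm38) and aggregated to an equal number of mapped reads per cell, without later scaling. The gene annotation of the table is not given in the sources used here. The R1 table was not used here beyond its number of cells. Cells were assigned to libraries by barcode suffix as the study's supplement gives it, and 0 columns of values were left unused. Ensembl identifiers were paired with symbols through GENCODE vM21, which named 27645 of 27998 genes.

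CPM were computed from UMIs summed over cells, log2 ratios with a pseudocount of 1 CPM and a minimum of 10 UMIs, with exact Poisson, conditional and Clopper-Pearson 95% intervals. A count of 0 was set at a floor of 3 UMIs over the library. Cells were thinned without replacement to 18231 UMIs, the 10th percentile of the shallower library. With totals of 8757170 and 10103178 UMIs, 3 UMIs are 0.343 and 0.297 CPM. Coding length was the longest annotated in GENCODE.

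Genes named were, among those with at least 100 UMIs and outside the 2-cell markers, the 15 highest and 15 lowest log2 ratios, the 10 largest differences each way in CPM and in thinned share of cells, the 10 largest ratios of Fano factors each way (at least 100 thinned UMIs in each library), and members of gene lists and marker lists. Of 947 listed genes 938 were found. Values of some list members that enter the counts are not reported here. Members and lists were chosen with earlier results of these data known. Promoters were RefSeq sequences of GRCm38.p6. Scrublet, in scanpy 1.11.5, marked doublets. Other steps used Python 3.11.15, numpy 2.4.6, scipy 1.17.1, pandas 2.3.3, scikit-learn 1.9.0 and matplotlib 3.10.9. A pair of libraries was simulated with counting error only, and 200 genes of at least 50 UMIs were changed 4-fold among 12584 tested. Of these 100 of 100 higher and 94 of 100 lower genes were called, with 4 false calls. Genes of fewer UMIs were not changed, so their recovery was not measured. Alternatives changed the pseudocount, the minimum of UMIs, the scaling, the weight of cells, depth, doublets, 2-cell-like cells and the fold.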

Additional observations from a re-analysis of the deposited data

How the results depend on the processing

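The counts of genes depended most on the pseudocount and the fold. With 0.1 CPM added 2109 genes were higher and 489 lower, with 5 CPM 247 and 126, at 1.5-fold 2734 and 1124, and at 3-fold 362 and 69. A minimum of 50 UMIs left 693 higher, 252 lower. Scaling, weight of cells, thinning, doublets and 2-cell-like cells kept both counts within 1.5 times. Median-ratio size factors shifted the median of all genes by -0.11 on the log2 scale, to 1028 higher and 402 lower. Under the scaling, weighting, depth, doublet and 2-cell alternatives 462 of 468 list counts stayed within 1 gene or 1.5 times. Of 745 genes named or listed 0 turned direction where the ratio was at least 2-fold. Of the 4470 values of these genes 315 moved, by at least 0.1 on the log2 scale and out of the counting interval.

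The difference in genes per cell, S+L minus 2i, was 47 thinned, turned to -201 unthinned and was 83 at 21641 UMIs. Genes detected in at least 20 points fewer S+L ESC cells numbered 408 unthinned. Genes with a Fano factor at least 1.5 times higher numbered 367 when unthinned UMIs were scaled to the median depth. The highest chromosome median was 0.21, and 0.10 among genes with at least 100 UMIs. No paired analysis was possible because each condition had 1 library. Depth limits genes near 0.343 CPM, where 3 UMIs lie.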
